A study of Mus musculus with 2 samples.

Results

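The matrix metalloproteinases (MMP), the ADAM and ADAMTS proteases, the ADAMTS-like proteins and the tissue inhibitors of metalloproteinases (TIMP) were examined in the left ventricle of mice without Bmal1 in the heart. Members were chosen by symbol alone, as every mouse RefSeq gene named Mmp, Adam, Adamts, Adamtsl or Timp followed by a number and at most a letter. The rule gave 85 genes, of which 83 had a matched probe on the array and 44 were measured, which means that at least 1 probe was well above background on at least 1 array. For all genes with a matched probe, 13846 of 20282 (68.3%) were measured, against 53.0% of the members. RNA came from male mice aged 12 weeks, collected at ZT 2, that is 2 h after lights on. Because only ZT 2 was sampled, a shifted rhythm cannot be told apart from a change in level. At this age the paper reports larger hearts and lower fractional shortening in the mice without cardiac Bmal1. Heart-specific Bmal1 knockout mice (H-Bmal1-/-) carried a floxed Bmal1 gene and Cre recombinase driven by the αMHC promoter, which acts in cardiomyocytes. The controls were littermates with the floxed gene and without Cre, although the sample labels call them wildtype, so that the floxed gene is shared by both groups and no animals with Cre alone were compared. RNA of 6 animals per genotype was pooled and each pool was hybridized to 1 array, so the experiment holds 1 sample per group and no test between genotypes was possible.

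Metalloproteinases of these families use a zinc ion to cut proteins outside the cell or at its surface. MMPs cut collagens and other matrix proteins, ADAMs mainly release the outer part of membrane proteins, and ADAMTSs cut proteoglycans, procollagens and glycoproteins. Most are made as inactive precursors, TIMPs block the active enzymes, and ADAMTS-like proteins have the matrix-binding domains of the ADAMTSs but no protease domain. In the heart, the balance between these enzymes and their inhibitors is known for its part in turnover of the collagen network, and fibroblasts, endothelial cells and leukocytes are known sources besides cardiomyocytes.

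Promoters were read because BMAL1 with its partner CLOCK binds the E-box CACGTG, whereas several MMP genes are textbook targets of AP-1, searched here as TGANTCA (N is any base). These letters are wider than the usual AP-1 site, which has C or G at N. In Adam20, Adam25 and Mmp20 the base at N was A. Both motifs read the same on both strands. RefSeq promoters of GRCm38.p6, from 250 bases before to 50 after a start, were available for 54 members, of which 26 were measured. The E-box was found in 5 of 59 member promoters (8.47%) and in 7.15% of all 32851 promoters of that length. AP-1 letters were found in 13 of 59 member promoters (22.0%) and in 7.81% of all promoters, and 8 of the 13 belong to neighbouring MMP genes on chromosome 9. The stretches around the motifs in the 4 measured members that held either motif are shown with 24 bases on each side and the motif in capitals, because these are the measured genes on which the letters bear.
Adam19, E-box, 130 bases before a start, chr11:46054348-46054401, plus strand: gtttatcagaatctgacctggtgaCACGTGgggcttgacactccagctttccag
Adam10, E-box, 64 bases before a start, chr9:70678894-70678947, plus strand: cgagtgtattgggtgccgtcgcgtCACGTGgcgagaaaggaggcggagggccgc
Adam19, AP-1, 131 bases before another start, chr11:46055829-46055883, plus strand: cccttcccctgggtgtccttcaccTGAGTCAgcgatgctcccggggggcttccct
Mmp3, AP-1, 46 bases before a start, chr9:7445752-7445806, plus strand: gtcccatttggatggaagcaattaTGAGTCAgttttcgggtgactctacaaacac
Mmp13, AP-1, 35 bases before a start, chr9:7272455-7272509, plus strand: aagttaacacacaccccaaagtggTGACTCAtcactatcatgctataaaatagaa
The distance is counted from the motif's leading base to the start. The letters alone do not show binding, and the values of these 4 genes follow with their families.

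Signals are Agilent processed signals in arbitrary units, as deposited, and are compared only between the pools for the same probe. Log2 ratios are H-Bmal1-/- minus control after the 75th percentile of each array, 171 for the control and 190 for the H-Bmal1-/- pool, was subtracted. This lowers every ratio by 0.15, so that a ratio less than 0.15 below 0 would lie above 0 without it. On these arrays 49.39% and 50.03% of spots were well above background, down to a signal of 11.1 on each. Probes with at least 8 spots well above background on both arrays had a median SD between spots of 0.07 in the log2 ratio. That value does not cover dim probes: the SD was 0.72 for Mmp9 and 0.67 for Adamts19. As a check of the labels, the probe of Arntl, which is Bmal1 under its RefSeq name, gave -0.80 and Nr1d1, a known target of BMAL1, gave -2.09. Whether the Arntl probe lies in the deleted stretch was not given and was not tested. All 10 cardiomyocyte markers were well above background on both arrays.

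Among the 44 measured members, 9 were at least 1.5-fold higher in the H-Bmal1-/- pool (20.5%), where 6.15% of all measured genes were, and 3 were at least 1.5-fold lower (6.82%), where 5.85% of all measured genes were. The 9 were Timp1, Mmp2, Mmp23, Adam8, Adam19, Adamts2, Adamts8, Adamtsl2 and Adamtsl3, and the 3 were Mmp13, Adam22 and Adamts7. A ratio above 0 was found for 23 members (52.3%), against 48.4% of all genes, and the median log2 ratio was 0.02, against -0.01 for all genes. Of these 23, Adam3, Mmp19 and Adamtsl3, which is also among the 9, passed the filter through the H-Bmal1-/- pool alone. Mmp9, below 0, passed it through the control pool alone. The directions of these genes rest on that filter. Every family with proteases held members in both directions past 1.5-fold, with 2 higher and 1 lower of 10 MMPs, 2 and 1 of 16 ADAMs, and 2 and 1 of 10 ADAMTSs. These are sizes in 1 pool per genotype, without a measure of the spread between animals.

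**Figure D1:**
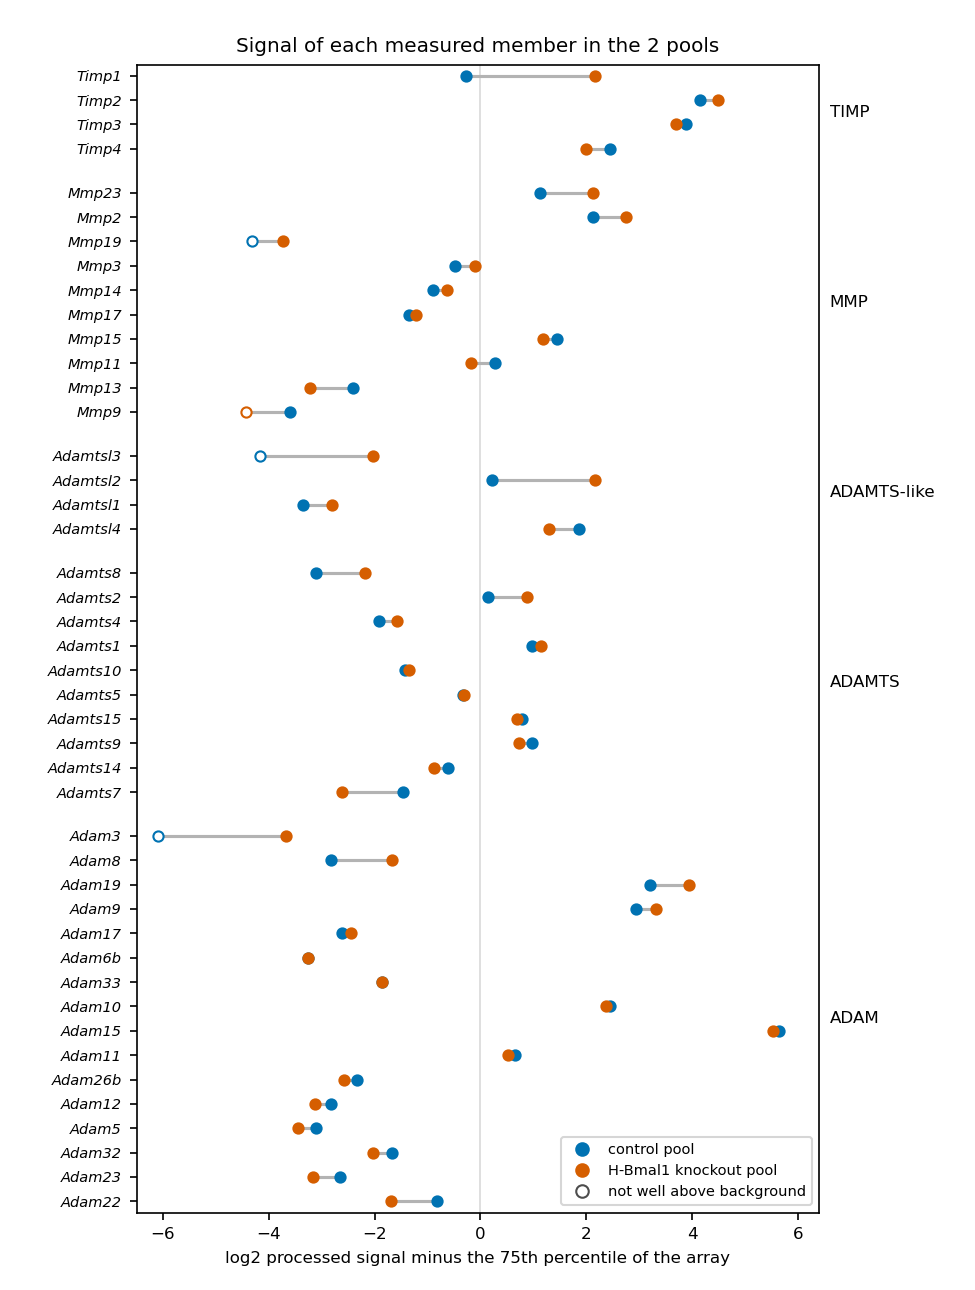
Signal of each of the 44 measured members in the control and the H-Bmal1-/- pool, as log2 processed signal minus the 75th percentile of the array, grouped by family, with open circles for signals not well above background. A line joins the pools of a gene, and positions are not to be compared between genes; the long lines to the right of the control belong to Timp1, Adamtsl2, Adamtsl3 and the dim Adam3.

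Of the inhibitors, Timp1 alone was past 1.5-fold. The product of Timp1 inhibits most secreted MMPs and is known to be induced in injured tissue. Its signal was 141 in the control pool and 855 in the H-Bmal1-/- pool, a log2 ratio of 2.45 (5.45-fold), which was the highest of any member. Timp2, which both inhibits MMPs and takes part in the activation of the MMP2 precursor, had signals of 9899 and 13174 with a brighter and 923 and 1374 with a dimmer probe, and its mean log2 ratio was 0.34 (0.26 and 0.42 by probe). Timp3 binds to the matrix and also inhibits ADAM17 and several ADAMTSs, and it read 2530 in the control and 2456 in the H-Bmal1-/- pool, a log2 ratio of -0.19. Timp4, the inhibitor known for its high level in heart, read 930 and 761, a log2 ratio of -0.44. The inhibitors thus lay on both sides of 0, with Timp1 and Timp2 higher and Timp3 and Timp4 lower in the H-Bmal1-/- pool, and their median was 0.07. Because these are RNA pools of whole ventricle, more or fewer cells of a type and more or less RNA per cell cannot be told apart. Timp1 lies within the gene Syn1, whose own log2 ratio was 0.93, and Timp4 lies within Syn2, with 0.57; a part of either in the signal of the other was not tested.

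Of the 23 MMP genes, 10 were measured, and Mmp2 and Mmp23 were past 1.5-fold higher. Mmp2, gelatinase A, which cuts denatured collagen and basement membrane collagen, read 750 in the control and 1288 in the H-Bmal1-/- pool, a log2 ratio of 0.63 (1.54-fold), the closest to the 1.5-fold size of all members counted as higher. Mmp23, a membrane-anchored MMP that lacks the usual hemopexin domain, read 372 and 835, a log2 ratio of 1.01 (2.02-fold). Mmp9, gelatinase B, which is stored in neutrophils, was near background, at 14.4 in the control and 9.29 in the H-Bmal1-/- pool. Its probe was printed 8 times, and 5 spots were well above background in the control and 0 in the H-Bmal1-/- pool. The measured log2 ratio was -0.82 with an SD of 0.72 between spots, 7 of the 8 spots were below 0, and the bound was at least 1.41-fold lower. Mmp9 counted as measured through the control pool alone, so its direction rests on that pool having passed the filter.

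The collagenases cut intact fibrillar collagen. Mmp13, collagenase 3, was the only measured gene of the 4 listed, and it read 32.1 in the control and 20.5 in the H-Bmal1-/- pool, a log2 ratio of -0.80 (1.74-fold lower). Mmp3, stromelysin 1, which activates other MMP precursors, lies close to Mmp13 in the MMP cluster on chromosome 9 and went the other way, with 123 and 177 and a log2 ratio of 0.38. Both have AP-1 letters within the promoter stretches shown above, while their ratios lay on opposite sides of 0. Of that cluster, which by order along the chromosome holds Mmp13, Mmp12, Mmp1b, Mmp3, Mmp1a, Mmp10, Mmp8, Mmp27, Mmp20 and Mmp7, no other gene was measured. Mmp11, stromelysin 3, had a log2 ratio of -0.44, and its probes were close, at -0.46 and -0.42.

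The membrane-type MMPs showed small ratios. Mmp14, the membrane enzyme that activates the MMP2 precursor together with TIMP2, read 91.6 and 123, a log2 ratio of 0.28. Mmp17 had a log2 ratio of 0.15 and Mmp15 of -0.26. The genes named here for MMP2 and its activation, Mmp2, Mmp14 and Timp2, had 0.63, 0.28 and 0.34, and only Mmp2 was past 1.5-fold. This grouping is not one of the gene lists, and 48.4% of all measured genes were above 0. Mmp19 was well above background in the H-Bmal1-/- pool only, at 14.4 against 8.56, and its bound was at least 1.17-fold higher. The median over the 10 measured MMPs was 0.21, or 0.19 with Mmp9 and Mmp19 at their bounds.

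**Figure D2:**
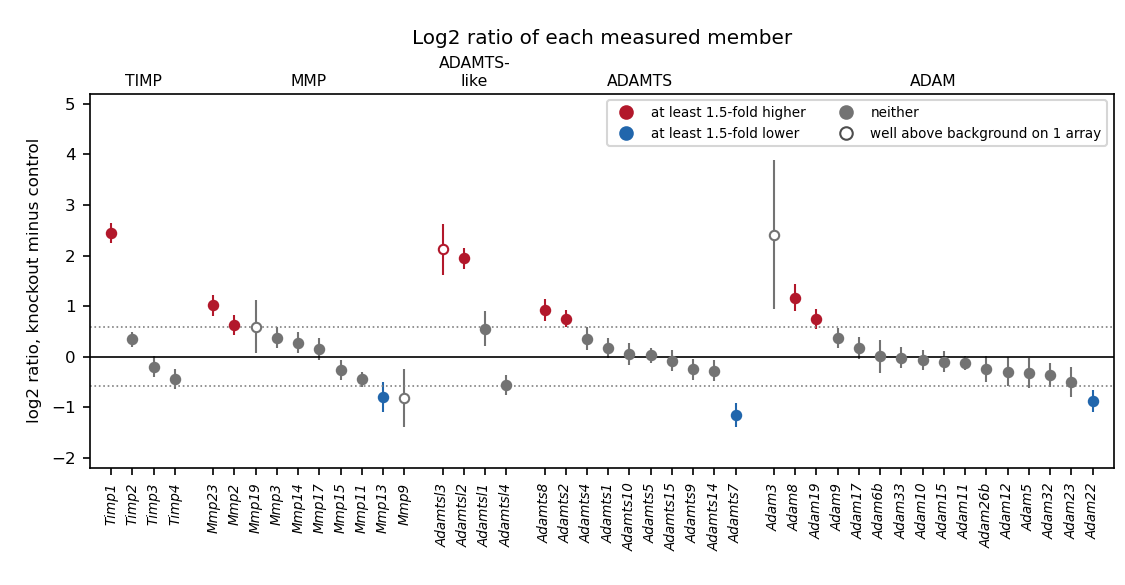
Log2 ratio, H-Bmal1-/- minus control, of each measured member, ordered by ratio within its family, with dotted lines at 1.5-fold and bars for the error that the scanner software gives for the probes of both arrays. The bars cover the reading of the spots and not the spread between animals; Timp1, at 2.45, and Adamtsl2, at 1.95, stand highest among genes well above background in both pools, and Adamts7, at -1.16, stands lowest.

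Of the 34 ADAM genes, 16 were measured. The somatic proteases of this family, which shed growth factors, cytokines and adhesion molecules, held 8 measured genes, 4 above 0 and 4 below (Adam10, Adam15 and Adam33 turned above 0 without scaling, and Adam17 turned to -0.01 with normexp), and of these Adam8 and Adam19 were past 1.5-fold. Adam19, meltrin β, known for its part in heart valve and septum development and as a sheddase of neuregulin, read 1578 in the control and 2939 in the H-Bmal1-/- pool, a log2 ratio of 0.75 (1.68-fold). Adam19 is also the measured member whose promoters held both the E-box and the AP-1 letters, at different starts. Adam8, a sheddase best known from leukocytes, was dim, at 24.02 and 59.89, with a log2 ratio of 1.17 (2.25-fold).

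The main sheddases had small ratios. Adam10, which cuts Notch receptors and has the other E-box shown above, read 934 and 989, a log2 ratio of -0.07. Adam17, which releases tumor necrosis factor and ligands of the EGF receptor, had log2 ratios of 0.11 and 0.24 with its probes, 0.17 on average. Adam9 had 0.37 (1316 and 1885), Adam15 had -0.10 (8505 and 8810) and Adam12 had -0.30 (24.2 and 21.9). The probes of Adam33 fell on both sides of 0, at -0.27 and 0.24. The genes with E-box letters, Adam10 and Adam19, thus had log2 ratios of -0.07 and 0.75.

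The ADAMs without protease activity that act as receptors in neurons were all below 0, of which Adam11 turned to 0.03 without scaling. Adam22, the receptor of the secreted protein LGI1, read 97.0 and 58.6, a log2 ratio of -0.88 (1.84-fold lower). Adam23 had -0.50 (27.2 and 21.3) and Adam11 had -0.12, the mean of probes on both sides of 0, at -0.26 and 0.01. The 5 measured genes of the germ cell group were dim, with signals of at most 53.9, that of Adam32 in the control pool. Adam3, a sperm protein, was well above background in the H-Bmal1-/- pool only, at 14.8 against 2.51, and although the measured log2 ratio was 2.41, its bound was at least 1.21-fold higher and the scanner error was 1.47. Adam5 had probes that disagreed, at -1.77 and 1.12. Adam3, Adam5, Adam32 and Adam9 follow each other on chromosome 8, and of these Adam32 and Adam9, measured with 1 probe each on both arrays, had -0.36 and 0.37.

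Of the 19 ADAMTS genes, 10 were measured and all 10 were well above background on both arrays. Adamts2, the main procollagen N-proteinase, which removes the N-terminal propeptide of fibrillar procollagens, read 1430 and 2999 with its brighter probe and 24.8 and 41.4 with the dimmer one. The log2 ratios were 0.92 and 0.59, with a mean of 0.75 (1.68-fold). Adamts14, which has the same activity, had a log2 ratio of -0.27 (112 and 103), which turned to 0.42 when its probe under the background filter was averaged in, and Adamts3 was not well above background.

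The proteoglycanases of this family cut aggrecan and versican, and 4 of the 6 measured were above 0 (5 without scaling, where Adamts15 had 0.07), with a median of 0.10. With normexp, Adamts5 turned to -0.003. Adamts8 was the one past 1.5-fold, although dim, with 25.1 and 60.9 by one probe and 15.7 and 28.6 by the other, log2 ratios of 1.13 and 0.71 and a mean of 0.92 (1.89-fold). Its neighbour on chromosome 9, Adamts15, had -0.08 (294 and 309). Adamts4 and Adamts1 had 0.35 and 0.17, Adamts5 had 0.03 with probes at 0.04 and 0.01, and Adamts9 had -0.25. Adamts7, which cuts the cartilage protein COMP and thrombospondin 1, was the lowest of all members, at 62.2 in the control and 31.0 in the H-Bmal1-/- pool, a log2 ratio of -1.16 (2.23-fold lower). Adamts10, which binds fibrillin, had 0.06. The median over the 10 measured ADAMTSs was 0.04, and it turned to -0.003 with normexp, where 4 of the 10 were above 0.

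The ADAMTS-like genes, whose products bind fibrillin microfibrils and other matrix parts, held the highest family median, 1.251 over 4 measured genes, or 1.23 with Adamtsl3 at its bound. The median was 0.56 over the 3 genes well above background on both arrays and 0.17 with normexp, so its size rests on the dim Adamtsl3 and Adamtsl1. Adamtsl2, known to bind the latent TGF-β binding protein LTBP1 and mutated in geleophysic dysplasia, read 198 in the control and 849 in the H-Bmal1-/- pool, a log2 ratio of 1.95 (3.85-fold). Adamtsl3 was not well above background in the control pool, at 9.55, and read 46.3 in the H-Bmal1-/- pool, with a bound of at least 3.77-fold higher. The bound does not cover the scanner error of 0.51 in log2, and the log2 ratio was 0.27 with normexp. Adamtsl3 counted as measured through the H-Bmal1-/- pool alone, so its direction rests on that pool having passed the filter. Adamtsl1 read 16.7 and 27.3, a log2 ratio of 0.56, just under the 1.5-fold size. Adamtsl4, mutated in a form of lens dislocation, went the other way, with 621 and 469 and a log2 ratio of -0.56 (1.47-fold lower), also just under that size.

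The 39 members with a probe but no measured signal had processed signals of at most 13.4 on either array. They were Mmp1a, Mmp1b, Mmp7, Mmp8, Mmp10, Mmp12, Mmp16, Mmp20, Mmp21, Mmp24, Mmp25 and Mmp28, then Adamts3, Adamts6, Adamts12, Adamts13, Adamts16, Adamts17, Adamts18, Adamts19 and Adamts20, and 18 ADAMs, which were Adam28 and, of the germ cell group, Adam1a, Adam1b, Adam2, Adam4, Adam6a, Adam7, Adam18, Adam20, Adam21, Adam24, Adam25, Adam26a, Adam29, Adam30, Adam34, Adam34l and Adam39. Their RNA was not detectable above background, which gives no direction for them. For Adamts19, printed 9 times, 2 spots were well above background in the H-Bmal1-/- pool and 0 in the control pool. Mmp27 and Adamtsl5 had no matched probe and were not analysed here.

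Processing bore on the dim members most. With normexp background correction, an alternative that pulls dim signals together, Timp1, Adamtsl2, Mmp23, Adam19 and Mmp2 stayed past 1.5-fold, at log2 ratios of 2.03, 1.77, 0.91, 0.75 and 0.64, while no member was counted as lower. Under it Adamts2 had 0.53, Adam8 0.32, Adamts8 0.32, Adamtsl3 0.27, Adam22 -0.52, Adamts7 -0.50 and Mmp13 -0.31, so these 7 kept their direction and fell under the 1.5-fold size.

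**Figure D3:**
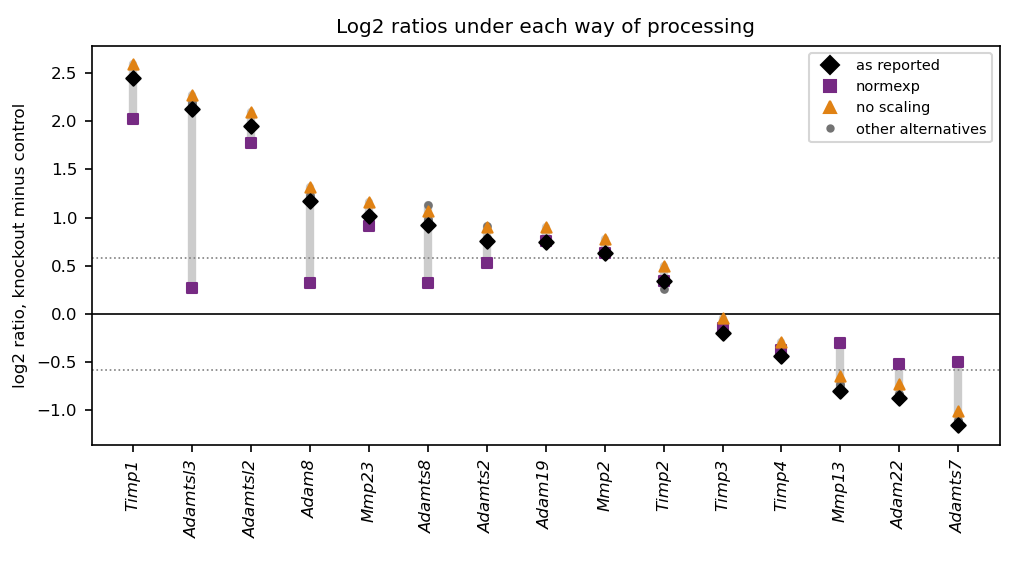
Log2 ratio, H-Bmal1-/- minus control, of the 12 members past 1.5-fold and the other TIMPs under each way of processing, with diamonds for the values as reported, squares for normexp, triangles for no scaling between arrays, small circles for the other alternatives, a grey bar over their range and dotted lines at 1.5-fold. The squares lie far from the diamonds for Adamtsl3, Adam8 and Adamts8 and close to them for Adam19 and Mmp2.

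Genes that act with the family were taken from lists. Of the 10 measured substrates of ADAMTSs, 9 were above 0 and 6 were at least 1.5-fold higher, with a median of 0.73. Among all measured genes, 48.4% were above 0 and 6.15% were at least 1.5-fold higher. Dcn is both a listed substrate and a fibroblast marker. Fbn2, fibrillin 2, had 2.20, with probes at 1.73 and 2.68, and was dim in the control pool (16.7 and 72.7). Thbs1, thrombospondin 1, which ADAMTS7 cuts, had 1.88 (58.7 and 240), and Vcan, versican, had 0.94 (101 and 218). Comp, the other substrate of ADAMTS7, had 0.73, and Ltbp1, the partner of ADAMTSL2, had -0.38 and was the substrate below 0. In the H-Bmal1-/- pool the RNA of Thbs1 and Comp was higher and that of Adamts7, read with 1 probe, was lower. Substrates listed for other ADAMTSs were above 0 too, with 9 of the 10 measured substrates above 0, and Adamts7 had -0.50 with normexp. RNA does not show cutting of proteins, and a link between these values was not tested.

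Of the 9 measured genes of the plasminogen system, which activates MMP precursors through plasmin, 6 were above 0, with a median of 0.17. Serpinb2, a serine protease inhibitor, was well above background in the control pool only and at least 1.67-fold lower. Neither activator was past 1.5-fold, with Plat at 0.17 and Plau at -0.37. Of 8 measured genes for zymogen activation and other inhibitors, 5 were above 0, and Pcolce, which enhances the removal of the procollagen C-propeptide, was past 1.5-fold at 0.88 (8731 and 17842). Furin, which activates membrane-type MMPs and ADAMs, had 0.06, and Reck, a membrane inhibitor of MMPs, had probes on both sides of 0 and a mean of -0.05. Of the astacin and pappalysin list, Bmp1, the procollagen C-proteinase, had 0.13 and Tll1 had -0.28.

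Partners and substrates of ADAM10 and ADAM17 had medians of 0.07 and 0.12. The median of the substrates was 0.03 with probes well above background on both arrays, 0.01 with normexp and -0.03 with no filter on dim probes. Of the partners, Tspan17, a tetraspanin of ADAM10, was past 1.5-fold at 1.40, with probes at 1.28 and 1.51. Of 18 measured shed substrates, Hbegf, the precursor of heparin-binding EGF-like growth factor, was past 1.5-fold higher at 0.95 (660 and 1417), and Notch1 was past 1.5-fold lower at -0.70 (106 and 72.9). Nrg1, the neuregulin that ADAM19 sheds, had 0.56 (202 and 332), just under that size. Areg and Ereg were well above background in the H-Bmal1-/- pool only, with bounds of at least 1.165-fold and 1.255-fold higher.

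Markers of the cell types that make these proteins are given beside the members. As a baseline for their counts, the share of all measured genes above 0 was 48.4%. The 1.5-fold size was passed upward by 6.15% of all measured genes and downward by 5.85%. All 10 fibroblast markers were above 0, 5 of them at least 1.5-fold higher, with a median of 0.57. Their summed signal in multiples of the array's 75th percentile was 479 in the control and 635 in the H-Bmal1-/- pool. A sum is led by its brightest probes, and Dcn, at 0.49, and Gsn, at 0.07, made up most of the fibroblast sums. Postn, an activated fibroblast gene, had 1.87, while Pdgfra had 0.39 and Tcf21 had 0.16. Of the macrophage markers, 9 of 10 measured were above 0 with a median of 0.06 and sums of 52.45 and 54.98, and Cd68 had no matched probe. Of the neutrophil markers, 6 of 10 were measured, 1 was above 0 and the sums were 97.8 and 84.9, with Ly6g without a matched probe and Mpo, Cxcr2 and Ngp not well above background. The list's median was -0.27, and without Csf3r, the probe that made up most of the sum, the sums were 6.94 and 5.64. Camp, a neutrophil granule gene, had probes that disagreed in size, at -2.27 and -0.36, and was well above background in the control pool only. Retnlg, the neutrophil marker above 0, was well above background in the H-Bmal1-/- pool only, at 14.1 against 8.57. The directions of Camp and Retnlg thus rest on the filter. Endothelial markers had a median of -0.07 with sums of 226 and 221, and smooth muscle and pericyte markers had -0.16 with 85.1 and 81.6. Cardiomyocyte markers had a median of -0.17, with sums of 5533 and 4910. All 5 epicardial and mesothelial markers were below 0, 3 of them past 1.5-fold, with a median of -0.60 and sums of 8.73 and 5.99. Schwann and neural markers had 5 of 5 measured below 0 and a median of -0.27, with sums of 7.57 and 6.18. Lymphocyte and mast cell markers had medians of -0.14 and -0.17. Without scaling, the medians were 0.09 for endothelial, 0.02 for lymphocyte, -0.01 for smooth muscle and pericyte, and -0.02 for cardiomyocyte and for mast cell markers. Those of the neutrophil, neural and epicardial lists stayed below 0, at -0.12, -0.12 and -0.44. The part of fibroblasts in the ratios of Timp1, Mmp2, Adamts2 and Adamtsl2, and that of the other cell types in any member, was not tested.

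**Figure D4:**
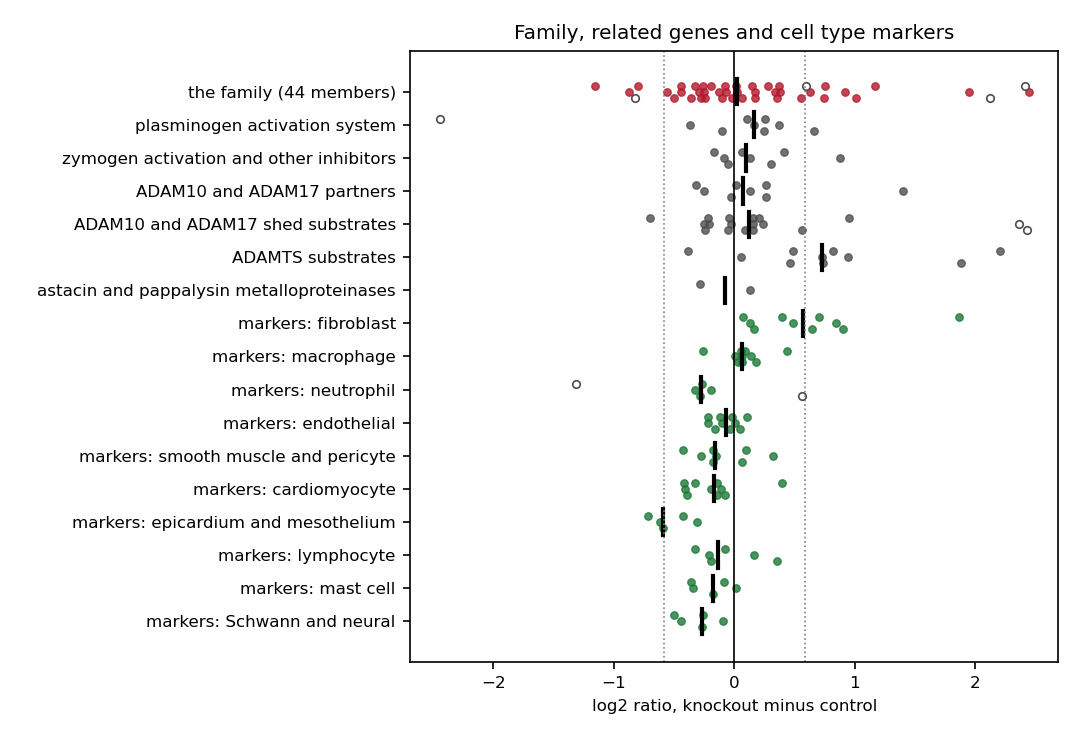
Log2 ratio, H-Bmal1-/- minus control, of each measured gene in the family, in 6 lists of related genes and in 10 lists of cell type markers, with a black bar at each median, dotted lines at 1.5-fold and open circles for genes well above background on 1 array only. The ADAMTS substrates and fibroblast markers, which share the gene Dcn, have the highest medians, 0.73 and 0.57, and the epicardial markers have the lowest, -0.60.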

How the data were processed

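Each array was hybridized with Cy3-labeled RNA of 1 pool. The deposited intensities are the processed signals that the authors obtained with Agilent Feature Extraction, background-subtracted, detrended and not scaled between arrays; the processing notes give version 10.5.1.1 and the scanner output 10.10.1.1. The authors' value table held the same signal times 1 factor per array (log2 factors 2.45 for control and 2.31 for H-Bmal1-/-, column medians 67.2 and 64), on a linear scale and not centred by gene. The rule for the factor is unknown here, and these values were used in an alternative.

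From the deposited intensities, log2 was taken, the 75th percentile over noncontrol spots was subtracted, and spots of a probe and then measured probes of a gene were averaged. Of 59305 noncontrol spots, 269 with an outlier flag were left out. Of 55676 probes, 26759 were named through an accession in a RefSeq table of GRCm38.p6, used for names and gene order only. A gene well above background on 1 array is given as "at least N-fold", from the bright signal over the higher of the other array's floor, the lowest signal well above background, and the dim probe's own signal, both scaled. Genes were named by a rule: every TIMP, every member past 1.5-fold, the remodeling enzymes that the study draws, the 3 highest and lowest of each family, the somatic ADAMs, and up to 3 genes past 1.5-fold in either direction of each of the other lists; further members are given with their group. A gene of the related lists that the rule names is not reported here. The members and the 29 gene lists were chosen with earlier results of these data known. With 1 array per genotype no test was made, and the number of arrays limits the precision. Alternatives were other scalings, normexp (offset 50, on the median signal), other filters, other probe rules, the value table and other sizes. Steps were tested on simulated data. Python 3.11.15, numpy 2.4.6, pandas 2.3.3, matplotlib 3.10.9, R 4.3.3 and limma 3.58.1 were used.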

Additional observations from a re-analysis of the deposited data

How the results depend on the processing

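No paired analysis was possible because each genotype has 1 array. Over 11 alternatives of scaling, background, filter, probe rule and source, 33 of the 44 measured members kept their sign wherever they had a value, among them the 12 past 1.5-fold, and 11 did not (Adam5 went to 1.12 with the brightest probe, Adamts14 to 0.42 with no filter). Of the 44, 4 (Adamtsl3, Adam3, Mmp9 and Mmp19) had no value with probes well above background on both arrays, so that Adamtsl3 was lost there. Adam5 was added there, as its probe at -1.77, not well above background in the H-Bmal1-/- pool, was left out. The counts of 9 higher and 3 lower members became 5 and 0 with normexp, under which 2.67% and 1.79% of all genes were past 1.5-fold, and 5 and 1 at 2-fold (11.4% and 2.27%, against 2.41% and 2.06% of all genes) or 14 and 10 at a log2 size of 0.32 (31.8% and 22.7%, against 14.2% and 15.0%). Without scaling the median of the members was 0.17 and that of all genes 0.14, and the median of the ADAMs turned from -0.08 to 0.07. With no filter on dim probes, 36 of 83 members were above 0 and their median was -0.12, against -0.10 for all genes. Adamtsl1 passed 1.5-fold with quantile normalization, cyclic loess and no scaling, and Adam22 fell under it with no filter. Signals near the floor limit what can be read for Mmp9, Mmp13, Mmp19, Adam3, Adam8, Adamts8 and Adamtsl3.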
